A study of Mus musculus with 6 samples.

Results

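Voltage-gated calcium channels are described here through 10 of their subunit genes, measured by RNA sequencing in 6 mouse hearts. The genes are Cacna1c, Cacna1d, Cacna1g and Cacna1h for the pore, Cacnb2 and Cacnb3 for the beta subunit, Cacna2d1 and Cacna2d2 for the alpha2delta subunit, and Cacng6 and Cacng7 for the gamma subunit. They are 10 of the 49315 genes in the count table, and all 10 passed the filter on low counts that left 14508 genes for testing. Cacng6 and Cacna1h were chosen by their levels in the knockout and wild-type hearts, and the other 8 as members of the same family. The knockout against wild-type difference of Cacng6 and Cacna1h is therefore a description and carries no test. The study compared 3 hearts of wild-type mice with 3 hearts of mice carrying a knockout of Arrdc4 made by CRISPR-Cas9, all on the C57BL/6 background. Arrdc4 encodes an alpha-arrestin, an adaptor protein that recruits ubiquitin ligases to membrane proteins. The sources used here do not give age, sex, litter, number of founder lines, heart chamber or time of collection.

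A voltage-gated calcium channel is built around 1 large pore-forming alpha1 protein that opens when the membrane depolarises. In L-type and other high-voltage channels a cytosolic beta subunit and an extracellular alpha2delta subunit bring the pore to the membrane and tune its gating, while T-type pores open at more negative voltages and can work without them. In heart muscle the L-type current through the Cacna1c pore triggers calcium release from the sarcoplasmic reticulum and so contraction. Cacna1d and the T-type pores of Cacna1g and Cacna1h are known for pacemaker cells, and T-type genes are also known from fetal and stressed ventricle. The gamma subunits are small proteins with 4 membrane spans. The gamma6 protein has been described as a partner that lowers T-type current, and gamma7 as a relative of the proteins that accompany AMPA-type glutamate receptors.

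The short coding stretches that follow are shown because they carry what sets the L-type members apart from the T-type members. They come from the third of the 4 pore loops, and the capitals mark the codon of the acidic residue that lines the selectivity filter. The stretches run 5′ to 3′ on the coding strand, with GRCm38 coordinates from the GENCODE M21 annotation.
Cacna1c: gtctccaccttcGAAgggtggcca
Cacna1d: gtctcaacttttGAGggctggccc
Cacna1g: ctggcctccaagGATggctgggtt
Cacna1h: ctgtcatccaagGATggctgggta
The Cacna1c stretch lies in exon 27 of 48 at chr6:118656115-118656138 and the Cacna1d stretch in exon 27 of 49 at chr14:30100699-30100722, both on the minus strand. The Cacna1g stretch lies in exon 24 of 38 at chr11:94426462-94426485 and the Cacna1h stretch in exon 24 of 35 at chr17:25383499-25383522, also on the minus strand. Both L-type genes have a glutamate codon there (GAA or GAG), and both T-type genes have an aspartate codon (GAT).

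For the gamma members the stretch shown holds the glycine, leucine and tryptophan codons, in capitals, of the signature that these proteins share with the claudins.
Cacng6: gccgcccatttgGGGCTGTGGaaggtgtgc
Cacng7: gcgctgcacgctGGCCTCTGGagagtctgc
The Cacng6 stretch lies in exon 1 of 4 at chr7:3424893-3424922 and the Cacng7 stretch in exon 2 of 6 at chr7:3336741-3336770, both on the plus strand. The longest open reading frames of the transcripts used had 260 codons for Cacng6 and 275 for Cacng7.

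The libraries held 29974501 to 41036626 counts. Expression is stated in CPM, the reads of a gene per 1000000 reads of the library after scaling. Arrdc4, the knocked-out gene, stood at 8.18 to 11 CPM in the wild-type hearts and at 0.0345 to 0.117 CPM in the knockout hearts, as labelled. Wild-type replicate 3 and knockout replicate 2 stood apart from the other 4 hearts on the first principal component, which held 58.9% of the variance, at -42.4 and -43.8 against -1.88 to 38.3. Reads of 4 Y-linked genes summed to 146 to 158 CPM in wild-type replicates 1 and 2 and knockout replicate 1, and to 1.19 to 2.24 CPM in the other 3 hearts, so hearts of both kinds occur in both groups. The summed level of 8 cardiomyocyte markers was 52782 to 58883 CPM in wild-type and 50742 to 62964 CPM in knockout hearts. Single markers of this list moved in opposite directions in wild-type replicate 3 and knockout replicate 2. Myh6 and Ryr2 were lowest in these 2 hearts, Myh6 at 10042 and 9167 CPM against 17169 to 29523 CPM. Tnnt2, Tnni3, Myl3, Myoz2 and Pln were highest in them, Pln at 8940 and 9182 CPM against 5202 to 6630 CPM. Actc1 did neither. The 5 atrial markers summed to 89.1 to 134 CPM in wild-type and 67.5 to 132 CPM in knockout hearts, of which Nppa gave 58.2 to 127 CPM and Nr2f2 5.03 to 7.83 CPM, while Myl4, Myl7 and Sln reached at most 1.85, 0.933 and 0.172 CPM. Of 9 skeletal muscle markers, Myh4 was at 0 in every heart, Myh1 and Myh2 reached at most 0.0466 and 0.0266 CPM, and the list summed to 1.90 to 4.51 CPM in wild-type and 1.73 to 3.86 CPM in knockout hearts. The highest of the list were Tnni2, at up to 2.87 CPM, and Mylpf, at up to 1.04 CPM. Tnni2 stood at 2.87 and 2.58 CPM in wild-type replicate 3 and knockout replicate 2, against 0.653 to 1.28 CPM in the other 4 hearts.

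Per exon length, 1 alpha2delta, 1 pore and 1 beta gene led the 10 members. On the scale of CPM per kilobase of exon, averaged over all 6 hearts, Cacna2d1 stood highest at 15.6 ± 1.75 (SD, n = 6), followed by Cacna1c at 9.46 ± 2.58 and Cacnb2 at 4.6 ± 0.96. These 3 genes are known for the L-type channel of heart muscle. Of the members, the T-type pore gene Cacna1g, Cacng6 and Cacng7 came next, in an order of means that differed between groups. This shift restates the Cacng6 difference, for which that gene was chosen. The Cacng6 values overlapped those of Cacng7 in wild-type hearts and those of Cacna1g in knockout hearts. In wild-type hearts Cacna1g stood at 1.67 ± 0.3, Cacng7 at 1.16 ± 0.262 and Cacng6 at 1.08 ± 0.0591, and in knockout hearts Cacng6 stood at 2.17 ± 0.214, Cacna1g at 2.02 ± 1.03 and Cacng7 at 1.48 ± 0.330 (SD, n = 3 each). Over all 6 hearts, Cacna1h stood at 0.644 ± 0.234 and Cacnb3, a beta subunit gene of neurons and smooth muscle, at 0.533 ± 0.143. The 2 lowest members were Cacna2d2 at 0.179 ± 0.0581 and the pacemaker L-type pore gene Cacna1d at 0.0778 ± 0.0349. Between neighbouring members in the order of the means over 6 hearts, the ranges were apart at 3 places, namely between Cacna2d1 and Cacna1c, between Cacnb2 and Cacna1g, and between Cacnb3 and Cacna2d2. The ranges of the other neighbours overlapped. Within every single heart, though, Cacna1c lay above Cacnb2, Cacna1h above Cacnb3 and Cacna2d2 above Cacna1d. Among tested relatives that are not members, Cacna1s at 1.93 ± 0.339 and Cacnb1 at 1.25 ± 0.136 lay between Cacnb2 and Cacna1h on this scale. Exon length here is the union of all annotated exons, which can be longer than the transcripts used in heart.

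**Figure D1:**
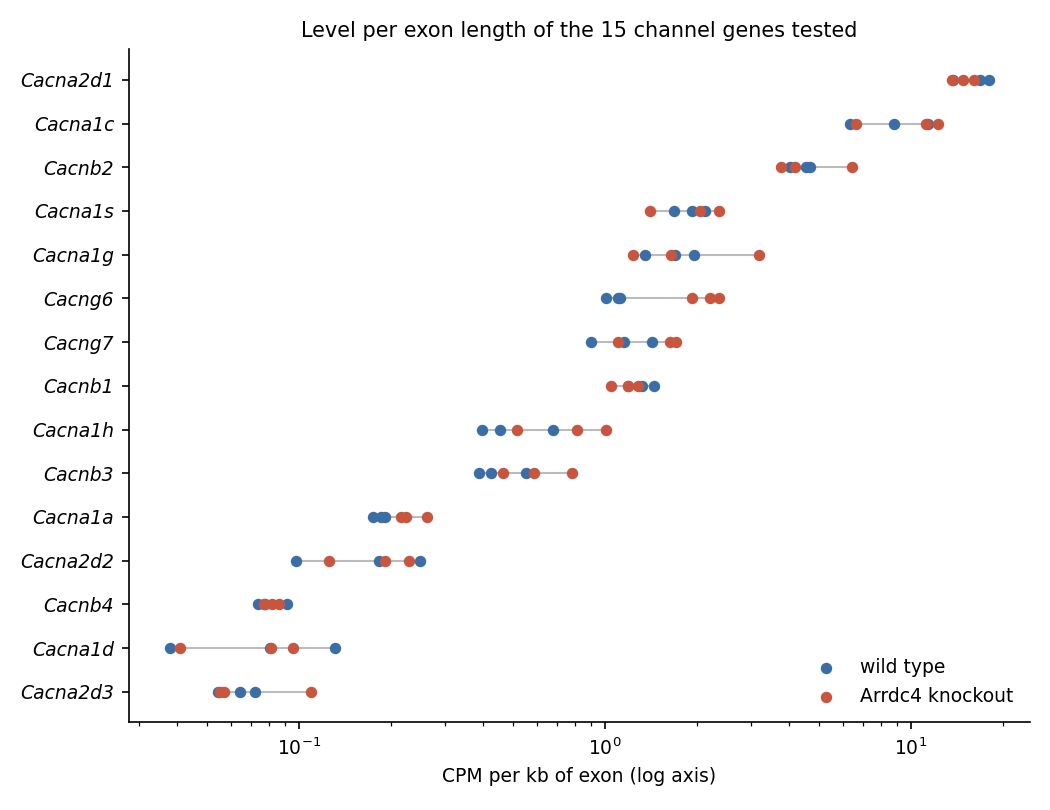
Level of each tested channel gene in CPM per kilobase of exon (log axis), 1 point per heart, wild type in blue and Arrdc4 knockout in red, with a grey line from the lowest to the highest heart. Cacna2d1, Cacna1c and Cacnb2 lead, and Cacna1d is the lowest of the 10 members. Blue and red points separate for Cacng6, a member chosen for its values, and for Cacna1a, which is not a member. They do so for 4.07% of all tested genes.

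Cacng6 was 2.01-fold higher in the knockout hearts than in the wild-type hearts, at 4.28 ± 0.424 CPM against 2.13 ± 0.117 (SD, n = 3 each). In the wild-type hearts it stood at 2.22, 2.0 and 2.18 CPM in replicates 1 to 3, and in the knockout hearts at 4.36, 3.82 and 4.66 CPM. All 3 knockout values lay above all 3 wild-type values, with the lowest knockout heart, replicate 2, well clear of the highest wild-type heart. Over all tested genes, 2.18% had every knockout value above every wild-type value. Cacng6 was chosen for its values. The log2 fold change of Cacng6 was 1.01 (SE 0.18), and the fold had a 95% interval of 1.5 to 2.70 that takes no account of this choice. Cacng6 (ENSMUSG00000078815) spans chr7:3424195-3435667 on the plus strand of GRCm38. In bulk tissue, more cells of a type and more RNA per cell cannot be told apart.

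These Cacng6 levels rest on few reads, 218 in the wild-type libraries together and 476 in the knockout libraries. The wild-type libraries held 70, 75 and 73 reads and the knockout libraries 187, 111 and 178. The exact 95% Poisson intervals of single hearts ran from 1.57 to 2.80 CPM over the wild-type group and from 3.15 to 5.4 CPM over the knockout group. Such intervals cover counting error only. The spread between wild-type hearts, 0.117 CPM, was smaller than the 0.251 CPM that counting alone would give, whereas the knockout spread of 0.424 CPM was near its counting value of 0.344 CPM. No other member had a spread below its counting value in either group.

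The Cacng6 levels in hearts with and without Y-linked reads are given as a description. Cacng6 was chosen for this difference and its groups did not overlap, so no split of the hearts could reverse it. Each comparison also rests on 1 heart on one side, and the part of sex was not tested. Among hearts with Y-linked reads Cacng6 was 2.11 CPM in 2 wild-type hearts and 4.36 CPM in 1 knockout heart, a log2 difference of 1.05. Among hearts without them it was 2.18 CPM in 1 wild-type heart and 4.24 CPM in 2 knockout hearts, a log2 difference of 0.96. With wild-type replicate 3 and knockout replicate 2 left out the log2 fold change was 1.09 (SE 0.21). Marker lists of epicardial and mesothelial cells, fibroblasts and Schwann cells reached higher sums in some knockout hearts, and their groups overlapped. The sum of 5 epicardial and mesothelial markers was 12.2, 8.02 and 6.54 CPM in wild-type replicates 1 to 3 and 33.6, 5.44 and 19.4 CPM in knockout replicates 1 to 3, high in knockout replicates 1 and 3. The sum of 6 fibroblast markers was 447 to 577 CPM in wild-type and 355 to 789 CPM in knockout hearts, and that of 6 Schwann cell markers 8.92 to 11 CPM and 6.79 to 15.3 CPM. Whether any of these cells bear on Cacng6 was not tested.

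Cacng7, the other gamma gene that could be tested, stood at 2.82, 3.49 and 2.21 CPM in wild-type replicates 1 to 3 and at 3.99, 2.69 and 4.16 CPM in knockout replicates 1 to 3. The groups overlapped, because knockout replicate 2 lay below 2 wild-type hearts. Its log2 fold change was 0.35 (SE 0.26), with a 95% interval of the fold from 0.837 to 1.94.

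**Figure D2:**
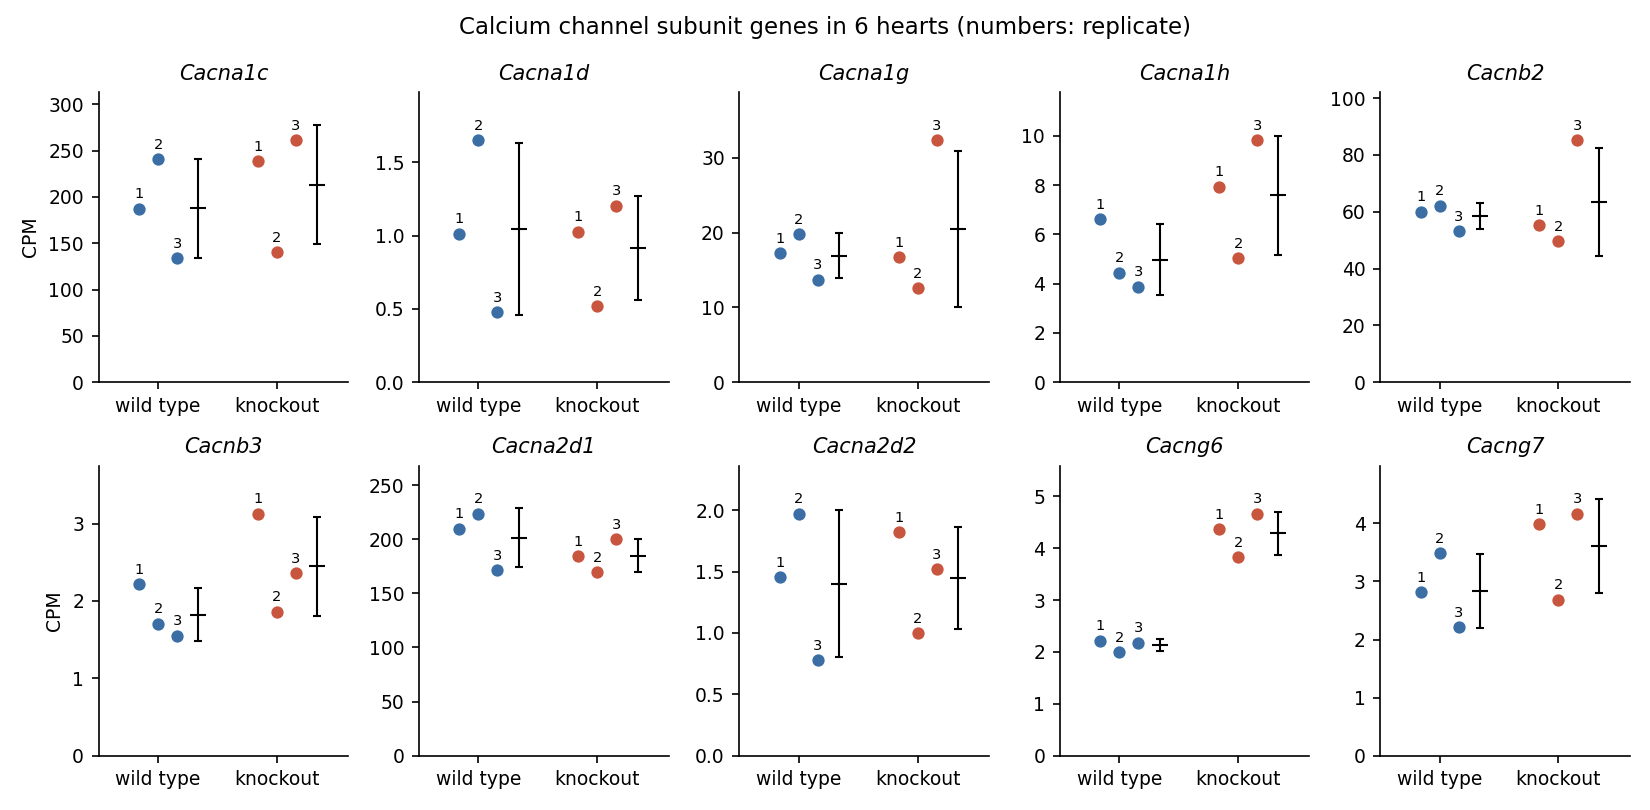
CPM of the 10 subunit genes in each heart, 1 panel per gene with its own axis from 0, wild type in blue and knockout in red, numbered by replicate. Black bars give the mean ± SD of each group (n = 3). Cacng6, chosen for its values, is the 1 panel without overlap between groups, which 4.07% of all tested genes show. Wild-type replicate 3 and knockout replicate 2 are low in most of the other panels.

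Of the 8 members that were not chosen for their values, none passed the test. In edgeR's quasi-likelihood test over 14508 genes each had an adjusted p of 1.0, 0 of the 8 had an unadjusted p under 0.05 against 1.23% of all genes, and DESeq2 and limma-voom also called 0 of the 8. Over all genes 0.00689% were called, which is Arrdc4 alone. Of the 8, 6 had higher and 2 lower values in the knockout hearts, with a median log2 fold change of 0.15 against 0.01 over all tested genes. Over all tested genes 52.3% were above 0. The 95% interval lay within a 2-fold difference in either direction for 5 of these 8 genes, against 76.5% of all tested genes. Groups without overlap were found for 0 of the 8, against 4.07% of all tested genes.

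**Figure D3:**
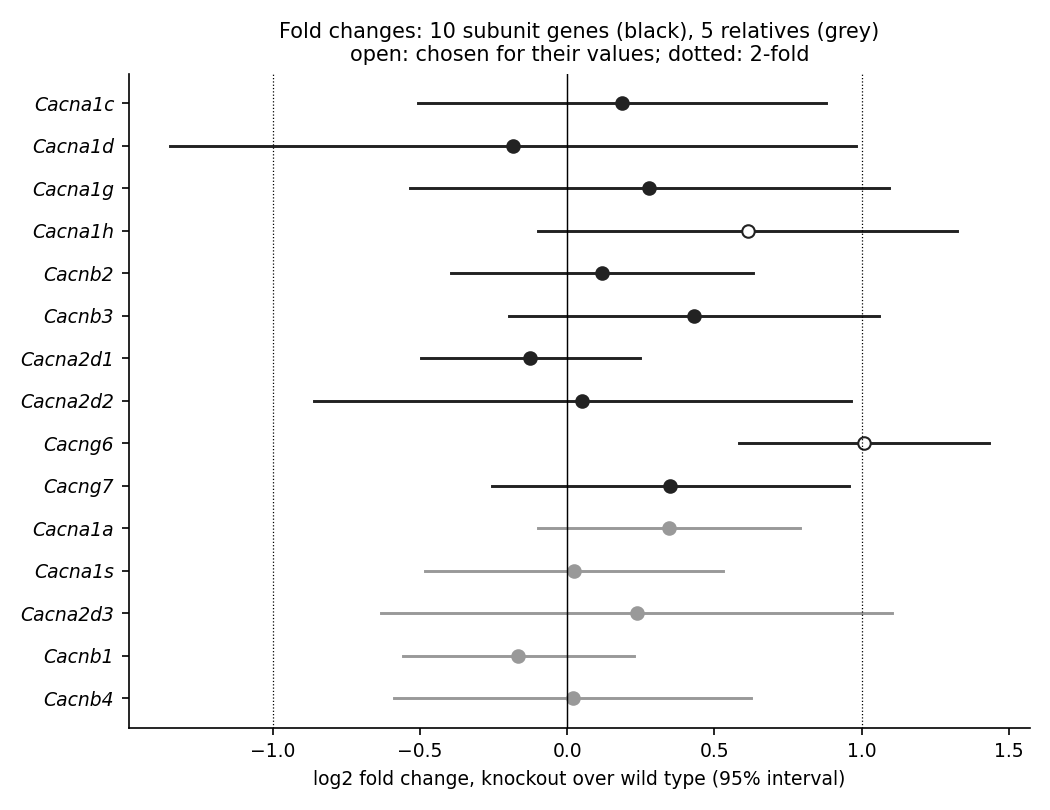
Log2 fold change, knockout over wild type, with its 95% interval for the 10 members (black) and the 5 other tested genes of the subunit families (grey). Open circles mark Cacng6 and Cacna1h, which were chosen for their values, and dotted lines mark a 2-fold difference. The intervals of the 8 members that were not chosen for their values all include 0.

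Cacna1h, which encodes Cav3.2, stood at 6.61, 4.45 and 3.88 CPM in wild-type replicates 1 to 3 and at 7.93, 5.03 and 9.82 CPM in knockout replicates 1 to 3. Knockout replicates 1 and 3 were the highest hearts, but knockout replicate 2 lay below wild-type replicate 1. This gave a log2 fold change of 0.61 (SE 0.30), a fold of 1.53 with a 95% interval of 0.934 to 2.50, given as a description of a gene chosen for it. Without wild-type replicate 1 that value was 0.87 and without knockout replicate 3 it was 0.38. Among hearts with Y-linked reads Cacna1h was 5.53 CPM in 2 wild-type and 7.93 CPM in 1 knockout heart, and among the others 3.88 CPM in 1 wild-type and 7.42 CPM in 2 knockout hearts. Without wild-type replicate 3 and knockout replicate 2 the log2 fold change was 0.68 (SE 0.24). Cacna1h (ENSMUSG00000024112) spans chr17:25374285-25433783 on the minus strand. Its exons share 158 bases with those of Tpsg1 on the opposite strand, but Tpsg1 had only 6 reads over all libraries beside 1367 of Cacna1h.

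Cacna1g, which encodes the T-type pore Cav3.1, was more abundant per exon length than Cacna1h in every heart. It stood at 17.2, 19.8 and 13.7 CPM in wild-type replicates 1 to 3 and at 16.7, 12.5 and 32.3 CPM in knockout replicates 1 to 3. Knockout replicate 3 alone was high, and the other 2 knockout hearts lay within or below the wild-type range. Its log2 fold change was 0.28 (SE 0.35), but -0.21 without knockout replicate 3. Per exon length the Cacna1h level was 30.8 ± 8.34% of the Cacna1g level in wild-type and 40.8 ± 8.95% in knockout hearts (SD, n = 3 each). By library this share was 39.8, 23.3 and 29.3% in wild-type and 49.4, 41.6 and 31.5% in knockout replicates 1 to 3, so the groups overlapped.

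The L-type pore genes gave no difference beyond the spread between hearts. Cacna1c, which encodes Cav1.2, stood at 187, 241 and 134 CPM in wild-type replicates 1 to 3 and at 238, 140.2 and 261 CPM in knockout replicates 1 to 3. Wild-type replicate 3 and knockout replicate 2 were the 2 lowest hearts and nearly alike. The log2 fold change was 0.19 (SE 0.30), with a 95% interval of the fold from 0.703 to 1.84, and without wild-type replicate 3 and knockout replicate 2 it was 0.21 (SE 0.15). Leaving out wild-type replicate 3 alone gave -0.01. With 43732 reads over the 6 libraries, counting error was small beside this spread, at 2.33 CPM against an SD of 53.5 CPM in wild-type hearts. Cacna1c spans chr6:118587240-119196418 on the minus strand.

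Cacna1d, which encodes Cav1.3, was the rarest of the members. It stood at 1.01, 1.65 and 0.478 CPM in wild-type replicates 1 to 3 and at 1.03, 0.517 and 1.2 CPM in knockout replicates 1 to 3, from 215 reads in all. The same 2 hearts, wild-type replicate 3 and knockout replicate 2, were lowest. The log2 fold change was -0.18 (SE 0.50), and the fold had a wide interval, from 0.392 to 1.98. The direction depended on single hearts, since leaving out wild-type replicate 2 gave 0.31 and leaving out knockout replicate 2 gave 0.08. Its exons share 589 bases with those of Chdh on the opposite strand, which had 23 reads, and no source used here states whether the counting used strand. Per exon length Cacna1d reached 0.885 ± 0.277% of Cacna1c in wild-type and 0.705 ± 0.0792% in knockout hearts (SD, n = 3 each). The log2 ratio of these 2 genes differed by -0.28 between groups (exact two-sided permutation test, p = 0.5, adjusted over 4 ratios 0.8; 3 against 3 hearts cannot go below 0.1).

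Neither beta subunit gene separated the groups. Cacnb2, which encodes the main cardiac beta subunit, stood at 60.1, 62.1 and 53.2 CPM in wild-type replicates 1 to 3 and at 55.3, 49.7 and 85.1 CPM in knockout replicates 1 to 3. Again knockout replicate 3 alone was high, and 2 knockout hearts lay among or below the wild-type hearts. The log2 fold change of 0.12 (SE 0.22) became -0.16 without knockout replicate 3. Cacnb3 stood at 2.22, 1.70 and 1.55 CPM in wild-type replicates 1 to 3 and at 3.13, 1.86 and 2.36 CPM in knockout replicates 1 to 3. Knockout replicates 1 and 3 were the highest and knockout replicate 2 lay inside the wild-type range, and the log2 fold change was 0.43 (SE 0.27). Per exon length Cacnb3 was 10.3 ± 1.66% of Cacnb2 in wild-type and 13.4 ± 4.84% in knockout hearts (SD, n = 3 each). Their log2 ratio differed by 0.33 (exact two-sided permutation test, p = 0.4, adjusted 0.8).

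Among the alpha2delta genes, which encode the extracellular subunit bound by gabapentin, Cacna2d1 varied least of all members over the 6 hearts together. It stood at 209.6, 223 and 171 CPM in wild-type replicates 1 to 3 and at 184, 169.7 and 200.3 CPM in knockout replicates 1 to 3. Its coefficient of variation over the 6 hearts was 11.2%, against 20.8 to 44.9% for the other 9. Within the wild-type hearts Cacng6 at 5.48% and Cacnb2 at 7.97% varied less than Cacna2d1 at 13.4%. Within the knockout hearts Cacna2d1 was again the lowest member, at 8.29%. The log2 fold change was -0.13 (SE 0.16), and the interval of the fold, 0.709 to 1.19, was the narrowest of the members. Cacna2d2 stood at 1.46, 1.97 and 0.776 CPM in wild-type replicates 1 to 3 and at 1.82, 0.999 and 1.52 CPM in knockout replicates 1 to 3, with a log2 fold change of 0.05 (SE 0.39). Its 2 lowest hearts were again wild-type replicate 3 and knockout replicate 2, and without the former the log2 fold change was -0.24. Per exon length it was 1.06 ± 0.336% of Cacna2d1 in wild-type and 1.22 ± 0.313% in knockout hearts (SD, n = 3 each), and the log2 ratio differed by 0.22 (exact two-sided permutation test, p = 0.6, adjusted 0.8). The log2 ratio of the T-type gene Cacna1g to the L-type gene Cacna1c was -3.44 on average in both groups (exact two-sided permutation test, p = 1, adjusted 1).

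Most members were low together in wild-type replicate 3 and knockout replicate 2, 1 heart of each genotype. These were the 2 lowest hearts for 7 of the 10 members, all except Cacng6, Cacna1h and Cacnb3, against 29.0% of all tested genes. The mean log2 CPM of these 2 hearts minus that of the other 4 was negative for all 10 members, from -0.09 for Cacng6 to -1.12 for Cacna1d. Among the 3 hearts without Y-linked reads, where wild-type replicate 3 is the only wild-type heart, the knockout mean was higher for all 10 members, and among the 3 hearts with Y-linked reads it was higher for 6 of the 10. The difference between the 2 low hearts and the other 4 moved with exon length over all tested genes. Its median was 0.44 for genes with under 2 kb of exon, 0.05 for 2 to 5 kb, -0.20 for 5 to 10 kb and -0.38 for 10 kb and over. Of the members, 5 have over 10 kb of exon and Cacng6 has the shortest, 1.98 kb. Within their own length class 8 of the 10 members lay below the lower quartile, all except Cacnb2 at -0.33 and Cacna2d1 at -0.26. In Cacna1c the difference was -0.75 and in Cacna2d2 -0.86. Marker sums of endothelial cells and macrophages were low in these 2 hearts too. The 5 endothelial markers summed to 294 and 283 CPM against 400 to 625 CPM in the other 4 hearts, and the 5 macrophage markers to 37.9 and 30.4 CPM against 60.5 to 116 CPM. Not every marker followed its sum. The endothelial marker Egfl7 was highest in these 2 hearts, at 49.5 and 51.4 CPM against 33.4 to 42.8 CPM. The macrophage markers Cd68 and Fcgr1 overlapped between these 2 hearts and the other 4. The 4 ventricular markers did not move together, since Myl2 stood at 11699 and 11846 CPM against 5054 to 7438 CPM, Myh7 at 79.2 and 62.7 CPM against 74.9 to 126 CPM, Irx4 at 28.0 and 31.2 CPM against 30.1 to 35.6 CPM, and Hand1 at 0 in every heart. The part of exon length or of these cells in the low values was not tested.

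**Figure D4:**
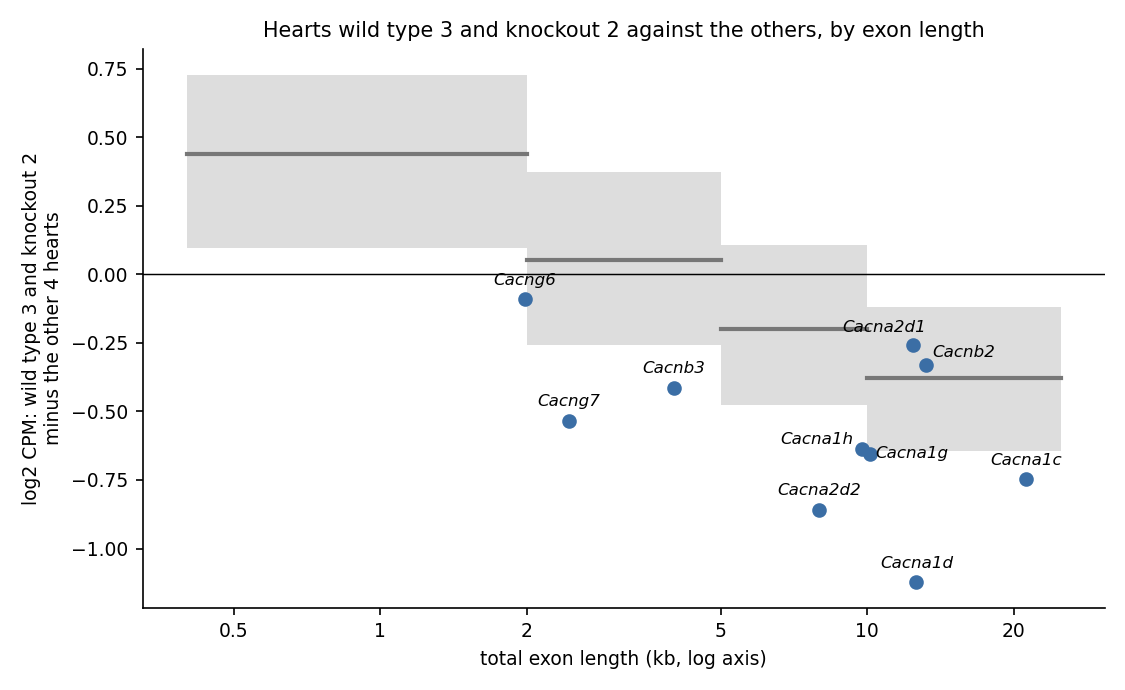
Mean log2 CPM of wild-type replicate 3 and knockout replicate 2 minus that of the other 4 hearts, for the 10 members (points) against total exon length (log axis). Grey lines and boxes give the median and quartiles of all tested genes in 4 length classes, with the outer classes drawn to fixed limits beyond the points. All 10 members lie below 0, Cacng6 nearest to it.

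Of the 26 genes in the 4 subunit families, 16 were not members, and 5 of these passed the filter. None of the 5 was called in edgeR, DESeq2 or limma-voom, against 0.00689% of all tested genes in edgeR. In edgeR 0 of the 5 had an unadjusted p under 0.05, against 1.23% of all tested genes. Cacna1a, the P/Q-type pore gene of nerve endings, stood at 2.12, 2.18 and 2.0 CPM in wild-type and at 2.47, 2.55 and 2.98 CPM in knockout replicates 1 to 3. Its groups did not overlap, and its log2 fold change was 0.34 (SE 0.19, adjusted p = 1.0 in edgeR). Groups without overlap were found for 4.07% of all tested genes, and 1 gene of 5 is too few to read against that share. Cacna1s, the pore gene of skeletal muscle, was expressed at 11 to 13.9 CPM in wild-type and 9.23 to 15.5 CPM in knockout hearts, with a log2 fold change of 0.02 (SE 0.22). Cacnb1, its beta partner in skeletal muscle, gave -0.17 (SE 0.17), Cacnb4 0.02 (SE 0.26) and Cacna2d3 0.24 (SE 0.37).

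The partners and regulators of the channel gave 0 called genes of 27 tested out of 31 listed. Over all tested genes 0.00689% were called, so this count does not set the partners apart. Of the 27, 19 had higher and 8 lower values in the knockout hearts, against 52.3% of all tested genes above 0. Their median log2 fold change was 0.05. In edgeR 0 had an unadjusted p under 0.05, against 1.23% of all tested genes, and DESeq2 and limma-voom also called 0. The 95% interval lay within a 2-fold difference for 25 of the 27, against 76.5% of all tested genes. Among the small GTPases that block the channel, Gem gave -0.28 (SE 0.22) and Rrad, the abundant cardiac form, 0.19 (SE 0.25), while Rem2 was too low to test. Among calmodulin and its kinases Calm3 gave 0.16 (SE 0.15) and Camk2b -0.28 (SE 0.28). For the protein kinase A group the smallest p values belonged to Pde4b, a phosphodiesterase, at 0.14 (SE 0.14), and to Ahnak, a scaffold that binds the beta subunit, at 0.26 (SE 0.31). Bin1, which shapes the T-tubule membrane and delivers Cacna1c protein to it, gave 0.35 (SE 0.21), and the dyad protein Ryr2 0.14 (SE 0.39). The ubiquitin ligases Nedd4 and Nedd4l gave 0.08 (SE 0.27) and 0.09 (SE 0.26).

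Cacng6 lies in a cluster of 3 gamma genes on chromosome 7, after Cacng7 and Cacng8, and no annotated gene body overlaps it. Within 250 kb of it the table held 39 other genes, of which 12 were tested. Of the 12, 9 had higher and 3 lower values in the knockout hearts, with log2 fold changes from -0.10 to 0.35 and a median of 0.19. Groups without overlap were found for 0 of the 12, a number too small to read against the 4.07% of all tested genes and the 5.31% of the 1131 tested on chromosome 7. The nearest tested gene was Cacng7, 56.0 kb away, while Cacng8, 8.55 kb away, had 2 reads over all libraries and was not tested. Besides Cacng7 the largest differences belonged to Oscar at 0.31 (SE 0.37), Myadm at 0.31 (SE 0.26) and Tmc4 at 0.30 (SE 0.51). Arrdc4 is on the same chromosome, 65.3 Mb from Cacng6.

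**Figure D5:**
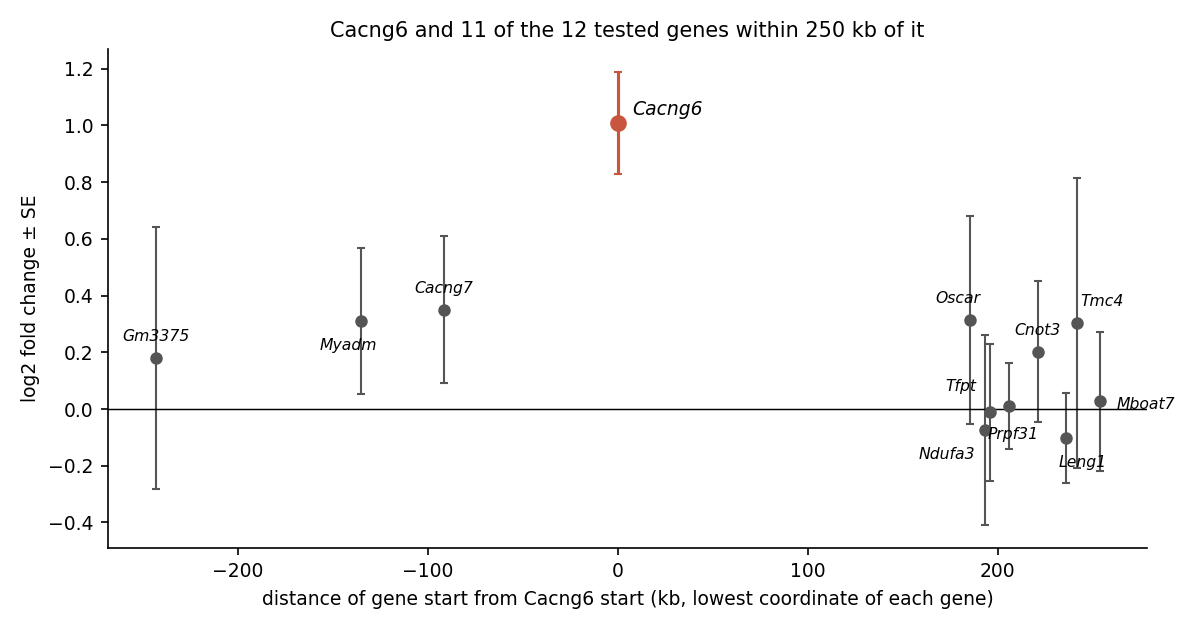
Log2 fold change ± SE, knockout over wild type, of Cacng6 (red) and of 11 of the 12 tested genes within 250 kb of it (grey), by the distance in kb between the lowest coordinates of the genes. The neighbours lie between -0.10 and 0.35, and Cacng6 at 1.01.

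The genes whose levels over the 6 hearts were most like those of Cacng6 were found by the root mean square difference of log2 CPM after centring each gene, among 10902 genes. They were Tmem56 (0.12), Lrp2bp (0.15), Nlrc5, a regulator of class I histocompatibility genes (0.21), Fap, a protease of activated fibroblasts (0.22), and Rttn (0.26). For Cacna1h they were Casq1, the calsequestrin of fast skeletal muscle (0.15), Cenpf, a kinetochore protein (0.16), Plxnc1, a semaphorin receptor (0.17), Dync2h1, a motor of the cilium (0.20), and Dock10 (0.20). Likeness used the same values by which Cacng6 and Cacna1h were chosen, so both lists are descriptions. No other member was among the 5 genes most like either of them. Cacna1d and Cacna2d2 could not be, as their mean log2 CPM was below 1, and 5 places among 10902 genes make absence likely for the rest. Cacnb3 was the member most like Cacna1h (0.25) and Cacna1h the member most like Cacng6 (0.35).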

How the data were processed

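RNA from 3 wild-type and 3 Arrdc4 knockout mouse hearts was purified with a Qiagen kit and turned into libraries with NEBNext Ultra II RNA reagents, as the labels' protocols state. The authors deposited whole-number read counts per Ensembl gene, not normalized. The submitters' processing notes list GRCm38.p6 as build and, with no role attached, DESeq2, STAR, featureCounts and Subread 1.5.2. The sources used here do not state the annotation release, the use of strand or the handling of multi-mapping reads. Of 49315 genes 48970 matched a symbol. Coordinates, exons and exon lengths are from GENCODE M21 on GRCm38.

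The 10 members, the gene lists and the alternatives were chosen with earlier results of these data known. Genes were kept by filterByExpr (minimum count 10, minimum total 15), scaled by TMM and tested with the quasi-likelihood test of edgeR 4.0.16 in R 4.3.3, with Benjamini-Hochberg adjustment over 14508 genes and a threshold of 0.05. Fold changes are knockout over wild type. DESeq2 1.42.0 and limma 3.58.1 (voom) were alternatives. The fit was tested on simulated data. Ratios used counts plus 0.5, and likeness used log2 of CPM plus 0.1.

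The text names all 10 members, tested relatives, up to 2 partners per subgroup with the smallest p, Cacng7, Cacng8 and up to 4 other neighbours of Cacng6 with the largest difference, and the 5 genes most like Cacng6 or Cacna1h above a mean log2 CPM of 1, leaving out predicted genes. One of these neighbours and the neuronal marker list are not reported here.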

Additional observations from a re-analysis of the deposited data

How the results depend on the processing

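Cacng7 kept its direction under all 16 alternatives, with log2 fold changes from 0.20 to 0.52. Cacnb3 (0.21 to 0.59) and Cacna2d1 (-0.23 to -0.05) did too, as did Cacng6 (0.94 to 1.09) and Cacna1h (0.38 to 0.87). Cacng6 and Cacna1h were chosen for their values in this comparison, so their kept direction is a description only. The groups of Cacng6 did not overlap, so leaving out hearts could not reverse it. The other 5 members changed sign under at least 1 alternative, and 0 of the 8 members given a test were called under any of them (smallest adjusted p 0.613 in edgeR). Without wild-type replicate 3, Cacna1c was -0.0075, Cacna2d2 -0.24 and the ratio of Cacna2d2 to Cacna2d1 -0.037. Without wild-type replicate 2, Cacna1d was 0.31, and without knockout replicate 1, Cacna2d2 was -0.15. Cacna1d was 0.08 without knockout replicate 2 and 0.16 with a term for Y-linked reads. Cacna1g was -0.21 and Cacnb2 -0.16 without knockout replicate 3. Without both wild-type replicate 3 and knockout replicate 2, Cacna2d2 was -0.05. The count of called genes was 1, and 2 without these 2 hearts (Arrdc4 and Spp1). Leaving out 1 library gave 0 to 1 called genes, with 0 without knockout replicate 3. With the replicate number as a block it was 0, with Arrdc4 at an adjusted p of 0.0507 in edgeR. Deviations from the group means correlated at 0.18, -0.65 and -0.40 between same-numbered hearts, and at 0.68 between wild-type replicate 3 and knockout replicate 2. With 3 hearts per group and these 2 hearts apart from the rest, such values cannot decide whether the numbers pair the samples. With 1 library left out, the log2 fold change ran from -0.01 to 0.41 for Cacna1c, from -0.53 to 0.31 for Cacna1d, from -0.21 to 0.53 for Cacna1g, from -0.16 to 0.26 for Cacnb2 and from -0.24 to 0.38 for Cacna2d2. The log2 ratio differences ran from -0.53 to -0.08 for Cacna1d to Cacna1c, -0.21 to 0.20 for Cacna1g to Cacna1c, 0.06 to 0.57 for Cacnb3 to Cacnb2 and -0.04 to 0.43 for Cacna2d2 to Cacna2d1. The value of Cacna1g to Cacna1c was -0.08 without wild-type replicate 2. They ran from 0.23 to 0.62 for Cacna1h to Cacna1g and from 0.58 to 1.06 for Cacng6 to Cacna1c. Depth limits Cacna1d, Cacna2d2, Cacnb3 and Cacng6 most, with 215 to 694 reads each over 6 libraries.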

Other observations

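Of the 26 genes of the calcium channel families, 11 were too low to test in these hearts. The TARP genes Cacng2 and Cacng3 had 0 reads in all 6 libraries, which allows up to 0.0141 CPM (3 counts over the 6 libraries, counting error only), and Cacng4, Cacng5 and Cacng8 had 2 reads each. Of the 8 gamma genes only Cacng6 and Cacng7 were therefore measurable. Cacng1, the gamma gene of skeletal muscle, had 9 reads, while its skeletal muscle partner Cacna1s had 2719. The pore genes of neuronal channels Cacna1b, Cacna1e and Cacna1i had 21, 12 and 17 reads, the retinal pore gene Cacna1f had 8, and Cacna2d4 had 2.

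The log2 ratio of Cacng6 to Cacna1c, which does not depend on scaling between libraries, was -6.41 ± 0.49 in wild-type and -5.59 ± 0.34 in knockout hearts (SD, n = 3 each). Per exon length Cacng6 stood at 12.7, 8.88 and 17.4% of Cacna1c in wild-type replicates 1 to 3 and at 19.6, 29.2 and 19.1% in knockout replicates 1 to 3, without overlap. This is a description of a gene chosen for its difference.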
